A study of Mus musculus with 4 samples.

Results

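Mitochondrial ribosomal protein genes were described by RNA sequencing of pancreatic islets, in which the endocrine cells of the pancreas lie. The genes were taken by name, as every symbol beginning with Mrpl or Mrps and a number, with a value in each library and a mean of at least 1 FPKM (fragments scaled by transcript length and library total, a level per length). All 76 symbols that match the name passed both conditions, of 11953 genes tested and 23235 symbols listed, and by name 47 belong to the large and 29 to the small subunit. The islets came from C57BL/6 mice of the KR mutant and WT genotypes, either fasted and then refed for 6 h or fasted only, which gives KR refed, WT refed, KR fasted and WT fasted groups. KR stands for a mutant allele of FoxO1, a transcription factor restrained by insulin, in which arginine takes the place of the lysines that are acetylated. The study's mice carry it in the gene itself, so it is not limited to beta cells. The titles give the fast as 48 h and the extraction protocol as 24 h, and the labels do not settle which holds. No label gives age or sex. Each group is 1 library made from the pooled islets of 3 mice, so no group has a replicate.

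Mitochondria carry a small genome that encodes a handful of membrane subunits of the respiratory chain and of ATP synthase. These are translated inside the organelle by a dedicated ribosome whose RNAs are mitochondrial, while all of its proteins are encoded in the nucleus, made in the cytosol and imported. Some of these proteins have bacterial counterparts and others are specific to the mitochondrial ribosome. In the beta cell, respiratory ATP production couples glucose to insulin secretion, so the machinery that builds the respiratory chain is of long-standing interest in islets.

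Depth, reckoned from the deposited bounds, was lower in the refed libraries. Relative to WT fasted it was 0.418 in KR refed, 0.683 in WT refed and 1.01 in KR fasted, and the mitochondrial ribosomal protein genes still had 98 or more implied fragments each in the shallowest library, KR refed, with a median of 407. The islet hormone genes marked the tissue as labelled. Gcg, the glucagon gene of alpha cells, stood at 24882 FPKM in KR refed, 26161 in WT refed, 26031 in KR fasted and 21258 in WT fasted, whereas Ins2 has no measured value in KR fasted. Several beta-cell markers moved with genotype, but Nkx6-1 had no common direction. It stood at 79.0 FPKM in KR refed against 85.5 in WT refed, and at 95.6 in KR fasted against 85.8 in WT fasted. Ins1, an insulin gene, stood at 12196 FPKM in KR refed against 3498 in WT refed, and at 7966 in KR fasted against 4320 in WT fasted, and Ins2 at 201043 in KR refed against 121397 in WT refed. Slc2a2, the glucose transporter gene of beta cells, moved with both factors, at 158 FPKM in KR refed and 108 in WT refed, against 85.4 in KR fasted and 47.3 in WT fasted. Markers of cell types outside the endocrine islet were low beside the hormone genes, and several moved with feeding. Cela1 and Cd74 reached 57.4 FPKM in KR refed and 54.2 in KR fasted, above the median mitochondrial ribosomal protein gene there. The 4 fibroblast and stellate markers summed to 15.7 FPKM in KR refed and 13.4 in WT refed, against 25.3 in KR fasted and 23.9 in WT fasted. Of 4 macrophage markers 3 are in the tables, and Cd74 and Cd68 made up most of their sum. The sum was 56.4 and 51.7 FPKM in KR and WT refed islets, against 92.3 and 76.8 in KR and WT fasted islets. Csf1r stood at 4.99 and 4.84 FPKM in KR and WT refed islets, against 6.83 and 4.87 in KR and WT fasted islets. The 4 endothelial markers summed to 4.86 and 6.19 FPKM in KR and WT refed islets, against 8.86 and 14.5 in KR and WT fasted islets. Of 6 acinar markers Amy2a5 has no measured value, and the other 5, of which Cela1 made up most, summed to 60.8 and 48.4 FPKM in KR and WT refed islets, against 40.7 and 35.1 in KR and WT fasted islets. Lymphocyte markers, 3 in number, also moved with genotype, at 7.52 FPKM in KR refed against 4.53 in WT refed, and 9.07 in KR fasted against 4.36 in WT fasted. Of 3 adipocyte markers, Adipoq and Plin1 were listed at 0 in every library, and Fabp4 stood at 0.85 FPKM in KR refed against 3.38 in WT refed, and at 1.58 in KR fasted against 5.06 in WT fasted. In such bulk samples, fewer cells of a type and less RNA per cell cannot be told apart, and the part of these markers in the results below was not tested.

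Every mitochondrial ribosomal protein gene was expressed in all 4 libraries. The levels ran from 6.56 to 270 FPKM in KR refed (median 38.9), from 6.68 to 256 in WT refed (median 42.6), from 4.73 to 213 in KR fasted (median 33.5) and from 5.11 to 187 in WT fasted (median 33.3). The 5 highest by mean FPKM were Mrps21, Mrpl52, Mrpl30, Mrps18c and Mrps16, and the 3 lowest were Mrpl19, Mrpl35 and Mrps25. Mrps21, a small subunit protein with a bacterial counterpart, lies on chromosome 3 at 95666575 to 95674542 of mm9 and had 270 FPKM in KR refed, 256 in WT refed, 213 in KR fasted and 172 in WT fasted. Mrpl52, a large subunit protein specific to mitochondria, had 228 FPKM in KR refed, 255 in WT refed, 188 in KR fasted and 187 in WT fasted. For both genes the refed libraries lay above both fasted ones. Mrpl19, a large subunit protein with a bacterial counterpart, was the lowest of the set at 6.56 FPKM in KR refed, 6.68 in WT refed, 4.73 in KR fasted and 5.11 in WT fasted. The row of Mrpl19 shares 1253 bases with that of AW146020, and that of Mrps25 3536 bases with Nr2c2. Reads may not be separable there.

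**Figure D1:**
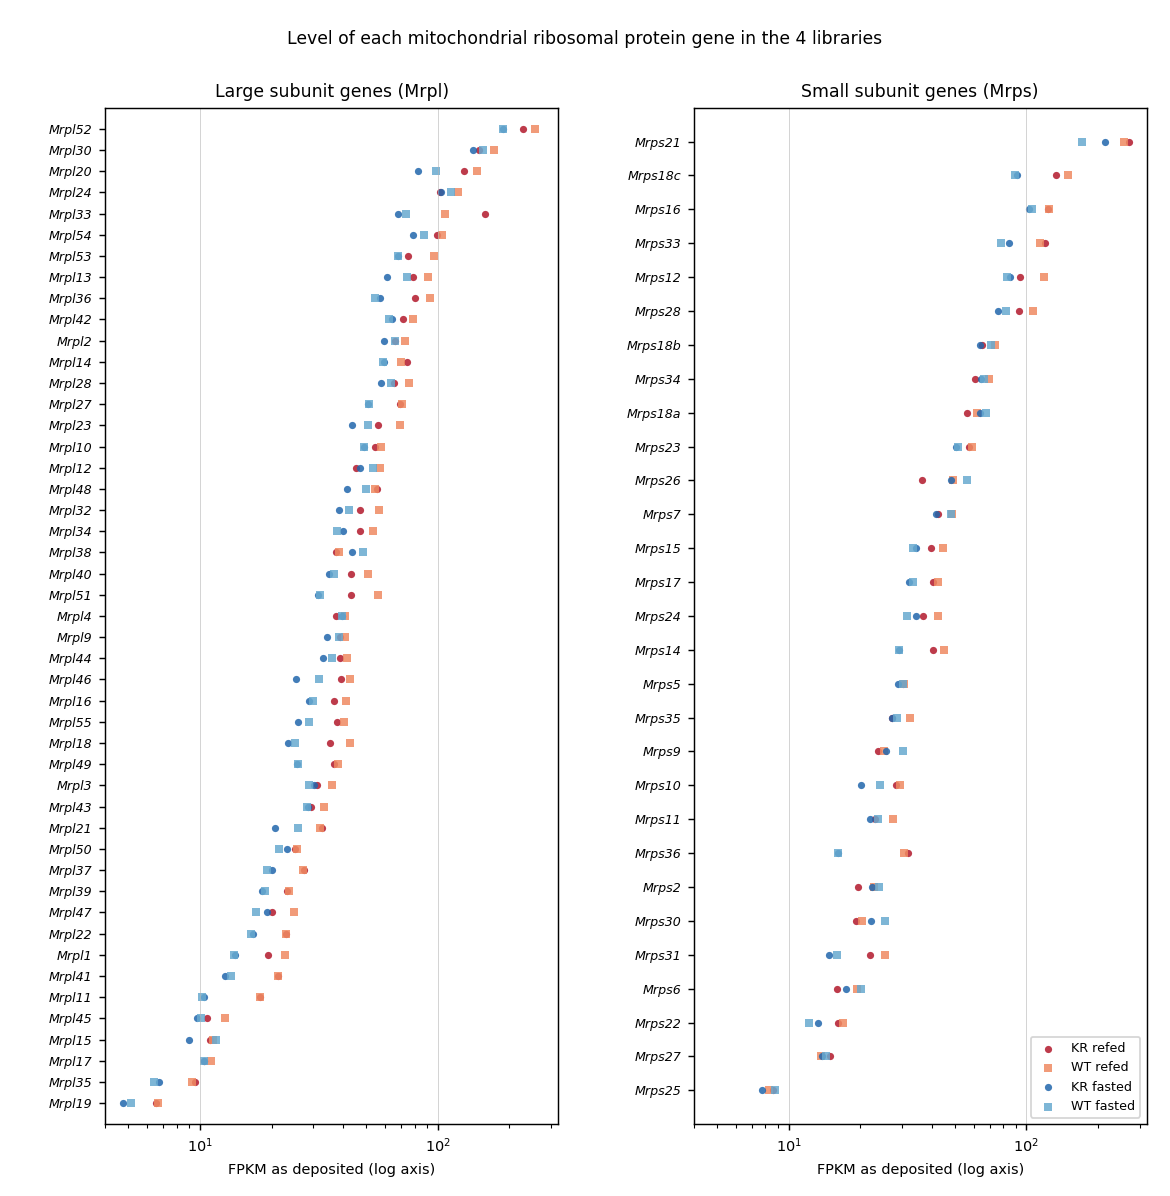
Level of each of the 76 genes in FPKM on a log axis, large subunit genes on the left and small subunit genes on the right, each ordered by mean level, with 1 point per library. Mrps21 and Mrpl52 head the panels and Mrpl19 and Mrps25 end them, and for most genes the red and orange points of the refed libraries lie to the right of the blue points of the fasted ones.

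The large subunit genes held 61.1% of the summed FPKM of the set in KR refed, 61.3% in WT refed, 59.4% in KR fasted and 60.8% in WT fasted. The sum over all 76 genes was 4083 FPKM in KR refed and 4422 in WT refed, against 3364 in KR fasted and 3499 in WT fasted. Both refed sums exceeded both fasted sums, and within each feeding state the KR sum was the lower one. Summed over all tested genes, the refed libraries were also higher. That sum was 618229 FPKM in KR refed and 617686 in WT refed, against 562369 in KR fasted and 552920 in WT fasted.

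The first comparison asks how refeeding after the fast moved these transcripts. Of the 76 genes, 50 rose in refed islets (65.8%) and 4 fell (5.26%), while 22 did not pass the test. Among all tested genes 27.7% rose and 29.2% fell, so the share that rose was above, and the share that fell below, that of the transcriptome. The test was limma on log2(FPKM + 1) in a model of feeding state and genotype over the 4 libraries, with Benjamini-Hochberg adjustment over all 11953 genes and a threshold of 0.05. Fold changes on this scale understate the change of low genes. With no filter on low values, 0 of 23046 genes passed the same test in either direction, members included. The median fitted difference, refed minus fasted, was 0.30 on the log2 scale over the 76 genes and -0.01 over all tested genes. The size was modest: only Mrpl33, in the KR pair, was at least 2-fold apart between refed and fasted (background 2.33% in the KR pair and 3.51% in the WT pair), and 68 of the 76 fitted differences were positive (89.5%, against 48.9% of all tested genes).

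Each genotype showed this on its own. The median difference was 0.26 in the KR pair and 0.31 in the WT pair, against -0.02 and 0.00 over all tested genes. A gain in both pairs was seen for 62 of the 76 genes (81.6%, against 41.9% of all tested genes) and a loss in both for 7 (9.21%, against 43.6%). The deposited bounds of the refed library lay wholly above those of the fasted one for 37 genes in the KR pair (background 23.0%) and 53 in the WT pair (background 30.1%). They lay wholly below for 2 in the KR pair (background 29.0%) and 3 in the WT pair (background 30.9%). These counts describe single pairs of libraries and have no replicate check. Across the 76 genes the differences of the KR and WT pairs correlated with r = 0.78 (Pearson) and rho = 0.79 (Spearman). Over all 11953 tested genes r was also 0.78 and rho 0.87. Genes are not independent replicates, and the refed libraries of both pairs are the shallower ones.

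Mrps36 had the largest fitted increase over both genotypes, although Mrpl33 exceeded it in the KR pair (1.21 against 0.95). The gene lies on chromosome 13 at 101505895 to 101514614 of mm9, and its product, although named for the small subunit, is known as a component of the 2-oxoglutarate dehydrogenase complex of the citric acid cycle. It had 31.9 FPKM in KR refed and 30.6 in WT refed, against 16.1 in KR fasted and 16.1 in WT fasted. The refed and fasted values did not overlap, and the rise was 0.91 ± 0.07 (limma SE, limma adjusted p = 1.96e-05). Each SE printed is that of limma, which leans on the spread of other genes. Annotated pseudogenes of Mrps36 number 3 in the gene name table, so how its reads were assigned is uncertain.

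Mrpl33, a short large subunit protein with a bacterial counterpart, is encoded on chromosome 5 at 31916324 to 31925017 of mm9. It had 158 FPKM in KR refed (deposited bounds 143 to 174) and 108 in WT refed (97.8 to 117), against 68.0 in KR fasted (61.7 to 74.4) and 73.7 in WT fasted (67.1 to 80.4). KR refed stood apart from the other 3 libraries, and WT refed also lay above both fasted ones. The difference was 1.21 in the KR pair and 0.54 in the WT pair. The fitted rise was 0.87 ± 0.13 (limma SE, limma adjusted p = 0.000537). With a robust prior the SE was 0.24 and the rise was not called (limma adjusted p = 0.105).

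Other increases were more even between genotypes. Mrpl11, whose bacterial counterpart sits where translation factors dock, had 17.8 FPKM in KR refed and 17.9 in WT refed, against 10.4 in KR fasted and 10.2 in WT fasted. Its rise was 0.74 ± 0.07 (limma adjusted p = 6.91e-05). Mrpl41, a large subunit protein specific to mitochondria, had 21.3 FPKM in both KR and WT refed islets, against 12.7 in KR fasted and 13.5 in WT fasted. In neither gene did refed and fasted values overlap. Mrpl41 rose by 0.66 ± 0.07 (limma adjusted p = 0.000103), but its row shares 1002 bases with that of Wdr85, which rose by 0.30 (limma adjusted p = 0.0115), and reads of the 2 genes may not be separable there. Next in size were Mrpl18 (0.66), Mrps18c (0.64), Mrpl36 (0.62) and Mrpl51 (0.62), all with an adjusted p under 0.05 in limma.

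**Figure D2:**
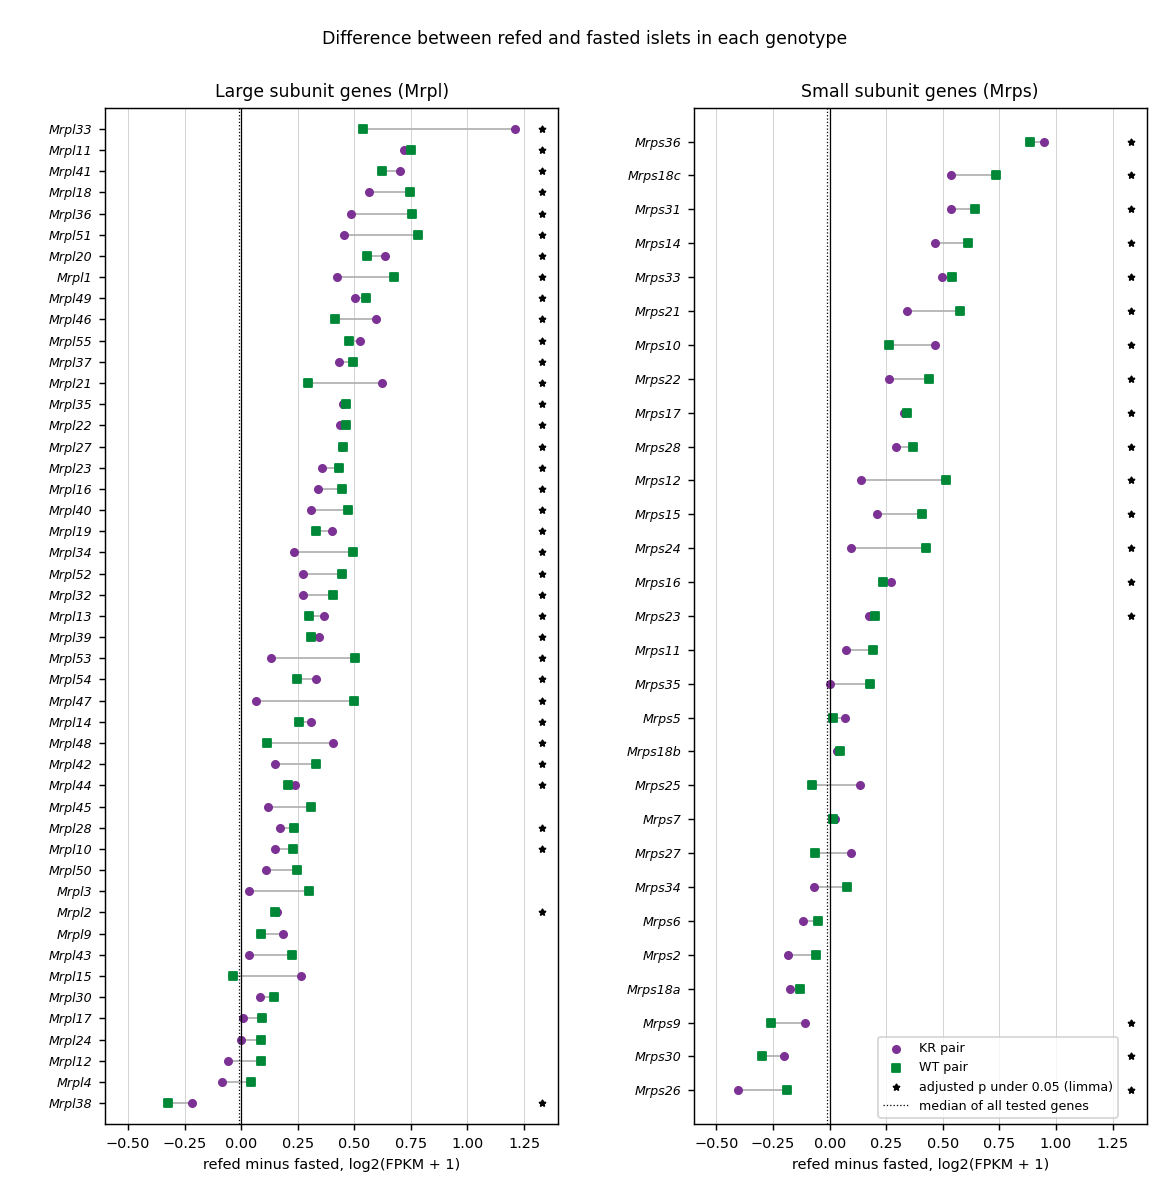
Refed minus fasted difference in log2(FPKM + 1) of each gene in the KR pair (purple circles) and the WT pair (green squares), with a star where limma called the gene and a dotted line at the median of all tested genes. Stars mark 35 of the 47 large subunit genes that rose and 1 that fell, and 15 of the 29 small subunit genes that rose and 3 that fell, and the KR point of Mrpl33 lies at 1.21, apart from its WT point at 0.54.

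The 4 genes that fell were Mrps26, Mrpl38, Mrps30 and Mrps9. Mrps26, a small subunit protein specific to mitochondria encoded on chromosome 2 at 130389493 to 130391130 of mm9, had 36.3 FPKM in KR refed and 49.1 in WT refed, against 48.3 in KR fasted and 56.1 in WT fasted. Each refed value lay below the fasted value of its genotype, although WT refed and KR fasted were close. Mrps26 fell by 0.30 ± 0.07 (limma adjusted p = 0.00674). Mrpl38, a large subunit protein specific to mitochondria, had 37.3 FPKM in KR refed and 38.5 in WT refed, against 43.5 in KR fasted and 48.4 in WT fasted, with no overlap between refed and fasted values. The fall of Mrpl38 was -0.27 ± 0.06 (limma adjusted p = 0.00662). Mrps30 had 19.2 FPKM in KR refed and 20.4 in WT refed, against 22.2 in KR fasted and 25.3 in WT fasted, and fell by 0.25 ± 0.07 (limma adjusted p = 0.0128). Its product was first counted with the small subunit and is placed in the large subunit by the structure of the mammalian mitochondrial ribosome. Mrps9, a small subunit protein with a bacterial counterpart, had 23.7 FPKM in KR refed and 25.1 in WT refed, against 25.6 in KR fasted and 30.3 in WT fasted. WT refed and KR fasted were again close, and Mrps9 passed narrowly (-0.18 ± 0.07, limma adjusted p = 0.0484). The call of Mrps9 was lost after median-of-ratios rescaling, without a variance trend and with limma-voom on implied fragments (adjusted p = 0.0599, 0.0944 and 0.0506).

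Next by decrease were Mrps18a (-0.15, limma adjusted p = 0.0517), Mrps2 (-0.12), Mrps6 (-0.09) and Mrpl4 (-0.02), none of which passed. Mrpl12, known for binding the mitochondrial RNA polymerase as well as for its place on the ribosome, had 45.3 FPKM in KR refed and 57.0 in WT refed, against 47.1 in KR fasted and 53.5 in WT fasted. Its refed and fasted values overlapped, and the fitted difference was 0.02 ± 0.06 (limma adjusted p = 0.84). Of further genes in a panel that the text names whatever their change, Mrps22 rose by 0.35, Mrps16 by 0.25 and Mrpl44 by 0.22, whereas Mrpl3 (0.17, limma adjusted p = 0.0918) did not pass. Mrps12, which belongs to the decoding site, rose by 0.33 (limma adjusted p = 0.0105).

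The promoters of 7 of these genes, picked after their values were seen as examples of different matches, are shown to set genes that rose beside genes that fell. Mrps26 is not printed, since a gene on the opposite strand starts 8 bases before it, and its stretch held CCAAT and CCGGAAG. Promoter windows in RefSeq (build GRCm38.p6, 250 bases before to 50 after each start) were found for 67 of the 76 genes. The 200 bases before the start are printed 5′ to 3′ on the gene's strand. Capitals mark matches, on either strand, of the motifs searched. The motif searched for NRF1 was TGCGCA, which is only a part of its site. For ETS factors, GABPA among them, it was CCGGAAG. For YY1 it was AAGATGG, and for E-box factors CACGTG. The NF-Y motif was CCAAT and the TATA box TATAAA. For forkhead factors, FoxO1 among them, it was TGTTTAC. None of these letters overlap one another in the stretches below. The genes that rose are Mrps36 (chr13:100744660-100744859, minus strand), Mrpl33 (chr5:31613751-31613950, plus), Mrpl11 (chr19:4962106-4962305, plus), Mrpl36 (chr13:73330809-73331008, plus) and Mrpl51 (chr6:125192000-125192199, plus). Those that fell are Mrps30 (chr13:118387253-118387452, minus) and Mrps9 (chr1:42851033-42851232, plus).
Mrps36: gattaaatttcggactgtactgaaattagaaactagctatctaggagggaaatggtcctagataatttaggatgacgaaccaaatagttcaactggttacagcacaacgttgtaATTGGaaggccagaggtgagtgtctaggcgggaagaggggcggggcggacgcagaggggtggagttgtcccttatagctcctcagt
Mrpl33: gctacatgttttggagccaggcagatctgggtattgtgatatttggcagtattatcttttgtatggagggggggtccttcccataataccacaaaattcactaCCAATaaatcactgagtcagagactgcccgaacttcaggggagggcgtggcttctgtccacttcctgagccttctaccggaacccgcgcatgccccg
Mrpl11: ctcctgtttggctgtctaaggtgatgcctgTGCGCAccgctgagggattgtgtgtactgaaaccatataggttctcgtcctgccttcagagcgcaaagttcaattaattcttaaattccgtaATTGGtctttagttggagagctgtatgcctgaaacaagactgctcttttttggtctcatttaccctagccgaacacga
Mrpl36: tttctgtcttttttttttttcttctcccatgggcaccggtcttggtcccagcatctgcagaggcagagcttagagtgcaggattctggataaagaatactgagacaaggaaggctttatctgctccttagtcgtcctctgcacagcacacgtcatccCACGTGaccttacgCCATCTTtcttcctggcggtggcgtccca
Mrpl51: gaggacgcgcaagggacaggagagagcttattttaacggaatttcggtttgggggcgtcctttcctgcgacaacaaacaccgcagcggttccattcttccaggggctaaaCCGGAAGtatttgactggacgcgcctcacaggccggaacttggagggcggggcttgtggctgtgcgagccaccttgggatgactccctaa
Mrps30: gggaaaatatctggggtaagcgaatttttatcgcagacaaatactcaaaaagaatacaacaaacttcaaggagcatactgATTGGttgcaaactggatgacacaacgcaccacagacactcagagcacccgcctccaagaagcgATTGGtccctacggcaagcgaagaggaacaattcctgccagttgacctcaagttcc
Mrps9: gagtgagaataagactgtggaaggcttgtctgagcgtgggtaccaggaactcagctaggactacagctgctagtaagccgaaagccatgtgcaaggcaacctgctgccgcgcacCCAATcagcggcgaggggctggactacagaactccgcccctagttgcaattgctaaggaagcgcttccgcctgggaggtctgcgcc

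In these stretches Mrps36, Mrpl33, Mrps30 and Mrps9 held the CCAAT letters, Mrpl11 held CCAAT and TGCGCA, Mrpl36 held CACGTG and AAGATGG, and Mrpl51 held CCGGAAG. Genes that rose and genes that fell thus shared the CCAAT match. Over all promoter windows of the set, CCGGAAG was present in 32.9%, against 17.3% of the windows of tested genes and 8.86% of all windows. TGCGCA was present in 27.4%, against 14.0% and 7.76%, and AAGATGG in 17.8%, against 6.99% and 6.34%. CCAAT was present in 41.1% of the windows of the set, CACGTG in 9.59%, TATAAA in 6.85% and TGTTTAC in 2.74%, against 37.5%, 10.2%, 6.94% and 2.51% of the windows of tested genes and 37.4%, 7.15%, 13.6% and 3.65% of all windows. Genes with a CCGGAAG match had a median refed minus fasted difference of 0.34 and those without one 0.28. For TGCGCA the medians were 0.21 with and 0.36 without, and for AAGATGG 0.33 with and 0.31 without. A CACGTG match was found for 5 genes, Mrpl2, Mrpl20, Mrpl36, Mrpl37 and Mrps18c, and all 5 rose, where 46 of the 67 genes with a window rose. The 5 genes with a TATAAA match and the 2 with a TGTTTAC match rose as well. Of the genes with CACGTG, Mrpl2, Mrpl20 and Mrpl37 are named after their values were seen. Median GC content was 58.3% in the windows of the set, 61% in those of tested genes and 52.7% in all windows. Its part in the shares of matches was not tested. A match is a run of letters and not a bound site.

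The promoters of the set often faced another gene. A gene on the opposite strand started within 1000 bases upstream for 25 of the 67 genes (37.3%), against 1760 of 8533 tested genes with a window (20.6%). The facing gene was itself tested, under the symbol RefSeq gives it, for 22 of them. Twnk, which faces Mrpl43, is outside this count. It was tested under its other name Peo1 and fell (-0.45, limma adjusted p = 0.00556). Of these 22 neighbours 7 rose, 6 fell and 9 did not pass (background 27.7% and 29.2% of all tested genes), with a median of 0.13, while 15 of the 22 ribosomal protein genes rose. One pair consists of members on both sides, since Mrpl46 and Mrps11 start 42 bases apart. This pair was picked after its values were seen. Mrpl46 rose by 0.50 (limma adjusted p = 0.000405) and Mrps11 did not pass (0.13, limma adjusted p = 0.134).

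Large and small subunit genes were compared next. By name, 35 of 47 large subunit genes rose and 1 fell, with a median of 0.33. Of 29 small subunit genes, 15 rose and 3 fell, with a median of 0.19. Among all tested genes 27.7% rose and 29.2% fell. The large minus small difference of medians was 0.15, and it was 0.17 in the KR pair and 0.13 in the WT pair. Names and structure do not match for 3 genes: Mrps30 and Mrps18a sit in the large subunit and Mrps36 outside the ribosome. Assigned by structure, 35 of 49 large subunit genes rose and 2 fell (median 0.33), and 14 of 26 small subunit genes rose and 2 fell (median 0.22), a difference of 0.11. Genes are not replicates, so the difference between subunits has no test.

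Within the large subunit, 22 of 30 genes with a bacterial counterpart rose and 0 fell (median 0.35), and 13 of 17 genes specific to mitochondria rose and 1 fell (median 0.32). Within the small subunit, 9 of 15 genes with a bacterial counterpart rose and 1 fell (median 0.26). Of the 9 genes specific to mitochondria 4 rose and 1 fell (median 0.09). The background for these classes is again 27.7% that rose and 29.2% that fell. The 3 relatives of bacterial S18, which occupy different places in the ribosome, differed from one another. Mrps18c had 133 FPKM in KR refed and 149 in WT refed, against 91.1 in KR fasted and 89.3 in WT fasted, and rose by 0.64 ± 0.06 (limma adjusted p = 8.51e-05). Mrps18b had 65.0 and 73.6 FPKM in KR and WT refed islets, against 63.5 and 71.3 in KR and WT fasted islets (fitted 0.04, limma adjusted p = 0.59). Mrps18a had 56.1 and 61.8 FPKM in KR and WT refed islets, against 63.5 and 67.8 in KR and WT fasted islets, and did not pass. Only Mrps18c of the 3 had refed values clear of the fasted ones in the direction of an increase.

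The set shares short transcripts. Its median principal transcript in the GENCODE annotation was 1284 nt (418 to 7300 nt, 76 genes), against 3010 nt for the 10445 tested genes with a length. Transcript length moved with the refeeding difference over all tested genes. The median was 0.33 for those under 1000 nt, 0.15 for 1000 to 1500 nt, 0.06 for 1500 to 2000 nt, 0.00 for 2000 to 3000 nt and -0.15 for those of 6000 nt or more. Among tested genes under 1500 nt, 51.6% rose, and 35 of the 47 ribosomal protein genes of that length rose (median 0.33, against 0.22 for all 1582 such genes). Among those of 1500 nt or more, 23.2% rose, and 15 of 29 ribosomal protein genes did (median 0.21, against -0.06 for all 8863). In finer ranges the distance was smaller for the shortest genes. Under 1000 nt, 21 of 25 ribosomal protein genes rose (background 63.9%), with a median of 0.36 against 0.33 for all 596 genes, and from 1000 to 1500 nt 14 of 22 rose (background 44.1%), with 0.21 against 0.15 for all 986. The lengths come from a later annotation than the deposited rows. For Mrps26, Mrps17, Mrpl51, Mrpl32 and Mrps16 they exceed the whole deposited row. Mrps26, for example, has 4278 nt, but its row runs only from 130389493 to 130391130. These genes are counted at 1500 nt or more, and all but Mrps26 rose, so the split by length is uncertain. The part of length in the refeeding result was not tested.

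**Figure D3:**
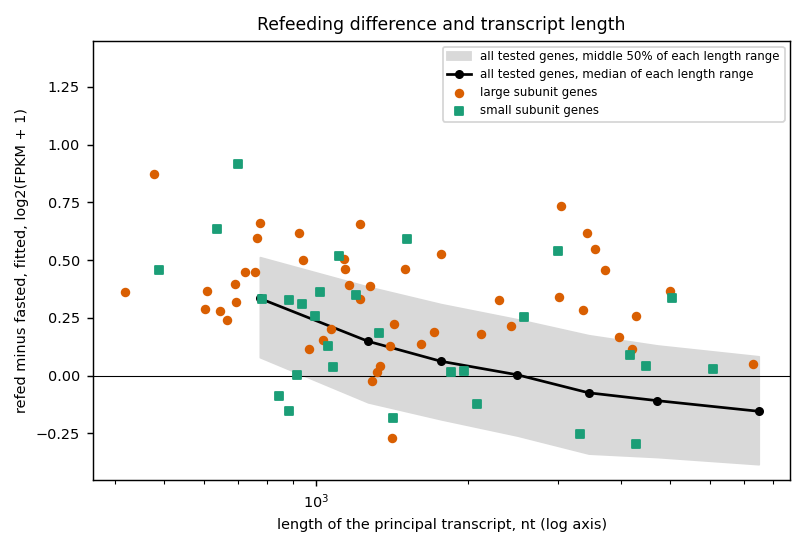
Fitted refed minus fasted difference in log2(FPKM + 1) against principal transcript length on a log axis, for large subunit genes (orange circles) and small subunit genes (green squares). The black line joins the medians of all tested genes in 7 length ranges, running between 0.33 for the shortest and -0.15 for the longest, and the grey band is their interquartile range, and most ribosomal protein genes lie on or above the line.

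The wider machinery of mitochondrial gene expression was set beside the ribosomal proteins by lists, for which the shares of all tested genes, 27.7% that rose and 29.2% that fell, are again the background. Of 7 mitochondrial ribosome proteins that carry other names, 4 rose and 1 fell, with a median of 0.34. Ptcd3 rose by 0.42, Chchd1 by 0.40, Aurkaip1 by 0.35 and Ict1 by 0.34, and Gadd45gip1 fell by 0.29. Of 26 genes grouped as factors of ribosome assembly and of mitochondrial RNA modification or stability, 7 rose (26.9%) and 5 fell, with a median of 0.05. Trub2, a pseudouridine synthase, rose by 0.61 and Ftsj2, a methyltransferase of the ribosomal RNA, by 0.55, and the GTPase gene Noa1 fell by 0.75 and the methyltransferase gene Mrm1 by 0.53. Of 16 translation factors, 3 rose and 3 fell, with a median of 0.09. Tufm, the mitochondrial elongation factor Tu, rose by 0.33 and Taco1, a translational activator, by 0.26, whereas Tsfm, the exchange factor of Tufm, fell by 0.24 and the peptide deformylase gene Pdf by 0.34.

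Of 14 genes of mitochondrial transcription, RNA processing and decay, and genome upkeep, 2 rose and 5 fell, with a median of 0.00. The 2 that rose, Hsd17b10 by 0.43 and Pnpt1 by 0.27, belong to RNA processing and decay. Both subunit genes of the mitochondrial DNA polymerase fell, Polg by 0.62 and Polg2 by 0.52. Of 9 tested regulators of mitochondrial biogenesis, 0 rose and 4 fell. Myc, a transcription factor that drives ribosome biogenesis, had 4.35 FPKM in KR refed and 4.35 in WT refed, against 18.6 in KR fasted and 26.4 in WT fasted, a fall of -2.12 ± 0.11 (limma adjusted p = 4.67e-06). Nrf1, a transcription factor of nuclear genes for mitochondria, had 10.6 FPKM in KR refed and 9.19 in WT refed, against 21.3 in KR fasted and 23.6 in WT fasted, a fall of -1.11 ± 0.09 (limma adjusted p = 2.88e-05). In both genes the refed values lay well below the fasted ones. Pprc1 (-0.57) and Yy1 (-0.46) were the other regulators that fell. Cytosolic ribosomal protein genes rose in 78 of 81 cases (median 0.41) and subunits of oxidative phosphorylation in 70 of 79 (median 0.46), both higher medians than that of the mitochondrial ribosomal proteins. No test of the difference between lists was made.

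**Figure D4:**
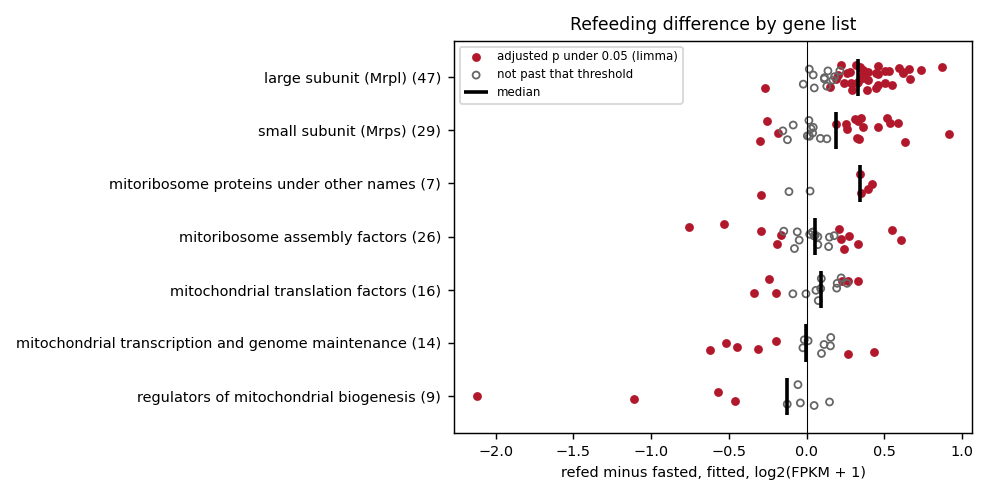
Fitted refed minus fasted difference in log2(FPKM + 1), 1 point per gene, for large and small subunit genes and for 5 related lists, with the number of genes in brackets, filled points where limma called the gene and black bars at the medians. The subunit rows and the ribosome proteins under other names have medians between 0.19 and 0.34, the other lists lie near or below 0.09, and Myc at -2.12 and Nrf1 at -1.11 are the outlying points of the regulators.

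The second comparison asks whether the KR form of FoxO1 moved these transcripts. In limma 0 of the 76 genes rose and 0 fell in KR islets, where 0.602% of all tested genes rose and 0.661% fell. At an unadjusted p under 0.05 the count was 18 lower and 1 higher, that is 23.7% and 1.32% of the set against 11.7% and 4.62% of all tested genes. With limma-voom on implied fragments, and with genes of a mean of at least 5 FPKM alone, 1 gene, Mrps26, was called lower. The median fitted difference, KR minus WT, was -0.10 over the set and -0.04 over all tested genes. After median-of-ratios rescaling these were -0.06 and 0.00, and the median of the set kept its sign. The fitted difference was below 0 for 64 of 76 genes (84.2%), against 64.8% of all tested genes.

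In the refed pair the median difference was -0.14 over the set and -0.05 over all tested genes, and in the fasted pair -0.06 and -0.03. In both pairs 45 genes were lower in KR (59.2%, against 42.7% of all tested genes), and 5 were higher in both (6.58%, against 18.9%). The deposited bounds in KR lay wholly below those in WT for 10 genes in the refed pair (background 11.8%) and 14 in the fasted pair (background 15.5%), and wholly above for 1 in the refed (background 3.51%) and 1 in the fasted pair (background 7.47%). The shares of the set that were lower, 13.2% and 18.4%, were near the background. The sizes of the differences in the refed and fasted pairs correlated with r = 0.08 (Pearson) and rho = 0.10 (Spearman) over the 76 genes, against 0.26 and 0.28 over all tested genes. The shallowest library, KR refed, is part of the refed pair, and its part was not tested.

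**Figure D5:**
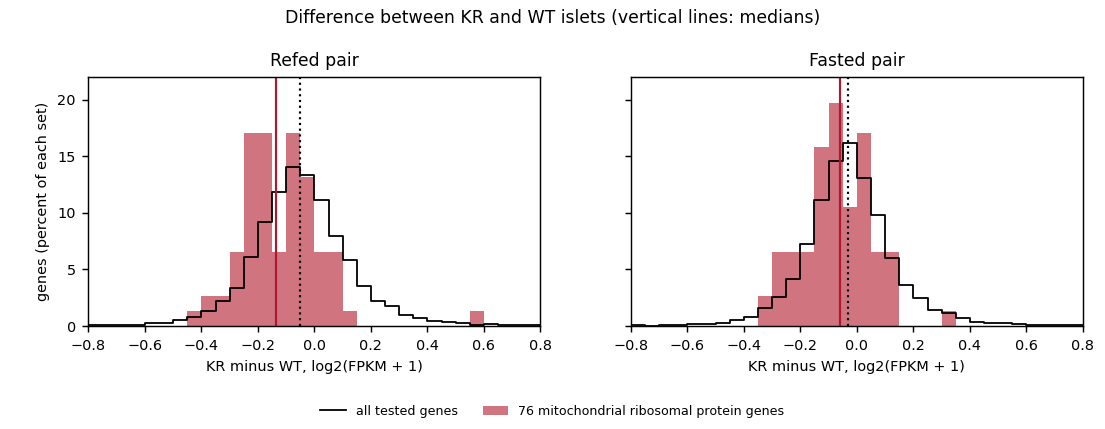
Share of genes, in percent of each set, by KR minus WT difference in log2(FPKM + 1) in bins of 0.05, for the refed pair (left) and the fasted pair (right), with the 76 genes as filled bars and all tested genes as a black outline. The red line marks the median of the set, at -0.14 in the refed and -0.06 in the fasted pair, and the dotted line that of all tested genes, at -0.05 and -0.03.

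The gene with the largest KR difference was Mrps26. It had 36.3 FPKM in KR refed and 49.1 in WT refed, and 48.3 in KR fasted and 56.1 in WT fasted, so KR was lower in both feeding states and the deposited bounds did not overlap in either. The fitted difference was -0.32 ± 0.07 (limma SE, limma adjusted p = 0.0772). The adjusted p was 0.0417 among genes of at least 5 FPKM and 0.0357 with limma-voom on implied fragments, and lay between 0.0521 and 0.631 under the other 5 alternatives. Mrpl23, Mrpl12 and Mrpl13 followed, with -0.26, -0.25 and -0.24 (limma adjusted p = 0.0938, 0.113 and 0.0989). Mrpl23 had 56.1 FPKM in KR refed and 69.1 in WT refed, and 43.6 in KR fasted and 50.9 in WT fasted. It has an annotated pseudogene, so how its reads were assigned is uncertain. For Mrpl12 the refed values were 45.3 FPKM in KR and 57.0 in WT, and the fasted values 47.1 in KR and 53.5 in WT. Mrpl13 gave 78.8 FPKM in KR refed and 91.2 in WT refed, and 61.0 in KR fasted and 73.9 in WT fasted. All 3 were lower in KR in each feeding state and none passed the test.

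The highest KR minus WT differences were those of Mrpl33 (0.22), Mrps21 (0.19), Mrps33 (0.09) and Mrpl35 (0.05), and none passed (limma adjusted p = 0.44, 0.208, 0.5 and 0.806). Mrpl33 was higher in KR in the refed pair, with 158 FPKM in KR against 108 in WT, and lower in the fasted pair, with 68.0 in KR against 73.7 in WT. Mrps21 was higher in KR in both pairs, with 270 FPKM in KR refed against 256 in WT refed, and 213 in KR fasted against 172 in WT fasted. The large minus small subunit difference of medians was 0.01 by name and -0.01 by structure, so its sign depends on where 3 genes are placed. None of the related lists of mitochondrial gene expression had a gene called between KR and WT. Oxidative phosphorylation subunits likewise had 0 genes called (median -0.06), and 2 genes of the cytosolic ribosomal protein list, Rps27 (-2.30) and Rps27l (-0.31), were called lower in KR (list median -0.02).

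Last, the refeeding difference in KR was set against that in WT. The KR minus WT difference of refeeding responses had a median of -0.06 over the set and -0.02 over all tested genes, and after median-of-ratios rescaling -0.03 and 0.00. It was below 0 for 50 of the 76 genes (65.8%), against 56.1% of all tested genes. With 1 library in each group this difference has no test, and the limma model treats it as error. Mrpl33 (0.67), Mrpl21 (0.33) and Mrpl15 (0.30) had the highest values. Mrpl21, a large subunit protein with a bacterial counterpart, had 32.5 FPKM in KR refed and 20.8 in KR fasted, and 31.8 in WT refed and 25.7 in WT fasted. Mrpl15, which also has a bacterial counterpart, had 11.0 FPKM in KR refed and 8.97 in KR fasted, and 11.4 in WT refed and 11.7 in WT fasted. In both genes the KR fasted value was the lowest of the 4.

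The lowest values were those of Mrpl47 (-0.43), Mrps12 (-0.37) and Mrpl53 (-0.37). Mrpl47 had 20.0 FPKM in KR refed and 19.1 in KR fasted, and 24.8 in WT refed and 17.3 in WT fasted. Mrps12 stood at 93.7 FPKM in KR refed and 84.9 in KR fasted, and at 119 in WT refed and 83.0 in WT fasted. Mrpl53 reached 74.8 FPKM in KR refed and 68.2 in KR fasted, and 96.5 in WT refed and 67.8 in WT fasted. In all 3 the WT refed value was the highest of the 4, and each rose with refeeding in the fit over both genotypes, although Mrpl47 and Mrpl53 were not called without a variance trend (limma adjusted p = 0.0929 and 0.0535).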

How the data were processed

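Per the labels' protocols, poly-A RNA of pooled islets was prepared with an Illumina TruSeq kit. The submitters' processing notes name bcl2fastq 1.8.4, TopHat2 2.0.4 and the mouse genome mm9. The deposited tables give FPKM, its 2 bounds and a status for each gene, per the file headers. How FPKM was estimated, and on which annotation, is not stated in the labels. Each table has 23699 rows. Rows of a symbol were summed, and 189 symbols without a valid value in each library were left out.

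Genes with a mean of at least 1 FPKM entered limma 3.58.1 (R 4.3.3) on log2(FPKM + 1), with a variance trend, feeding state and genotype as terms, 1 residual degree of freedom and a prior worth 7.58. The residual degree of freedom is the difference between the KR and WT refeeding responses, which the model treats as error. The test was also run on simulated data with independent noise for each gene, which cannot check for effects shared within a library. Because of that prior a p-value or an SE owes more to the spread of other genes than to that of the gene itself. Both cover only differences between pooled libraries. An exact permutation of 2 against 2 libraries could not go below p = 0.333. Implied fragments are the squared ratio of FPKM to its error taken from the bounds, and cover counting error only. Differences within a pair have no test. Coordinates are mm9, with 1 added to the deposited start, as a test on microRNA rows required. Promoters and the facing genes come from RefSeq, and transcript lengths from GENCODE, both GRCm38.

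The genes named are the 5 highest and 3 lowest by level, the 8 largest refeeding differences in each direction, the 4 largest genotype differences in each direction, the 3 highest and lowest differences of response, any gene 2-fold apart in a pair and a fixed panel. Related lists name the 2 largest changes in each direction, with further members, chosen after their values were seen, for the ribosome proteins under other names and the regulators of biogenesis. The members and lists were chosen with earlier results of these data known. Alternatives are in the closing section.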

Additional observations from a re-analysis of the deposited data

How the results depend on the processing

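The count of genes that rose with refeeding was 50 and lay between 41 and 52, and that of genes that fell was 4 and lay between 3 and 5, under a pseudocount of 0.1, median-of-ratios rescaling, a mean of at least 5 FPKM, no variance trend, a robust prior and limma-voom on implied fragments. Of the 50, 41 were still called without a trend, 49 with a robust prior, 49 with limma-voom and 50 under the other 3. With no filter on low values 0 rose and 0 fell, and 0 of 23046 genes were called in all; the cause was not tested. For KR against WT, 1 gene was called lower with a mean of at least 5 FPKM and 1 with limma-voom. Without the 12 genes that overlap another row or have an annotated pseudogene, chosen after seeing the data, 42 of 64 rose and 4 fell.

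Leaving out each library in turn leaves the other pair, a value with no test. The refeeding median then ran from 0.26 to 0.31, the KR minus WT median from -0.14 to -0.06, and the large minus small difference from 0.13 to 0.17 for refeeding and from 0.00 to 0.03 for genotype. Placing Mrps30 and Mrps18a in the large subunit and leaving out Mrps36 gave 0.11 for refeeding and -0.0091 for genotype. Rescaling moved the median difference of responses to -0.034. No paired analysis was possible because each group has 1 library and the labels give no replicate numbers, beyond the genotype term of the model, which already compares refed with fasted libraries within a genotype. Depth limits KR refed most.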
